A study of Mus musculus with 2 samples.

Results

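Several receptors hold long-term hematopoietic stem cells (LT-HSCs) in the bone marrow and fix them to neighbouring cells and matrix. These receptors were examined in LT-HSCs of 2-year-old mice with or without induced deletion of *p38α*, the stress kinase encoded by *Mapk14*. The set holds 8 genes, *Cxcr4*, *Itga4*, *Itgb1*, *Cd44*, *Tek*, *Alcam*, *Jam2* and *Esam*, of 22555 named genes on the array. They were chosen by name, as receptors or adhesion molecules of the niche, and the array reads them with 15 probes of 55662.

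Two-year-old C57BL/6J mice provided bone marrow LT-HSCs for 2 single-colour Agilent arrays, 1 array per genotype. The *p38αΔ/Δ* mice carried CAG-CreERT2 and floxed *p38α* alleles and had received tamoxifen (TAM) at about 50 to 60 weeks of age, 1 year before analysis. The *p38α+/+* controls were age-matched Cre(-) *p38α* fl/fl mice, which were also injected with TAM, so both groups carried floxed alleles and had been exposed to TAM. The CAG promoter is active in most cell types, so the deletion was not limited to blood cells, and the number of mice behind each array is not given in the sources used here. According to the labels the cells were CD150+CD48-Flt3-CD34- LSK (lineage-negative, Sca-1-positive and c-Kit-positive), to which the methods add the absence of CD41. With 1 array per genotype there is no spread between mice and no test, so each value below describes these 2 arrays. In such bulk samples, fewer cells of a type and less RNA per cell cannot be told apart.

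HSCs stay in the marrow because several kinds of contact act together. The chemokine receptor CXCR4 answers CXCL12 from stromal cells, the integrin α4β1 (encoded by *Itga4* and *Itgb1*) binds VCAM-1 and fibronectin, and CD44 binds hyaluronan. TIE2, the product of *Tek*, is the receptor tyrosine kinase for angiopoietins and is linked to HSC quiescence. ALCAM (CD166), JAM-B (*Jam2*) and ESAM are immunoglobulin-family molecules that join cells to each other, and both JAM-B and ESAM are found at endothelial junctions as well as on HSCs.

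Agilent probes of 60 bases each read only 1 stretch of a transcript, and for several of these genes the stretch decided the value. The sequences of the probes that lie in coding sequence are therefore shown, in the sense direction and 5′ to 3′, with positions counted in bases along the transcript. Each stands for a different part of its receptor. The *Itga4* probe at 2292 lies in the extracellular part of α4 and crosses a splice junction. The *Itgb1* probe at 1840 lies in the cysteine-rich extracellular stalk of β1, and that at 2631 in its cytoplasmic tail, where capitals mark the codons of the pair of NPxY motifs that bind talin and kindlins. The *Cd44* probes at 1777 and 1965 lie in the alternatively spliced variable region, the *Tek* probe near the end of the intracellular part, the *Alcam* probe in the part of the extracellular chain next to the membrane, and the *Jam2* probe at the membrane-spanning part.
*Itga4* 2292: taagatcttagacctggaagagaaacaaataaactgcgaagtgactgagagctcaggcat
*Itgb1* 1840: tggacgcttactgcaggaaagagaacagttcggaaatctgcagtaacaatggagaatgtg
*Itgb1* 2631: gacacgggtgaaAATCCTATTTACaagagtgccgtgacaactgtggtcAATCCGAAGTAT
*Cd44* 1777: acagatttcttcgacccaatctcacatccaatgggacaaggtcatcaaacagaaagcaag
*Cd44* 1965: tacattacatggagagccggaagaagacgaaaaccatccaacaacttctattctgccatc
*Tek* 3658: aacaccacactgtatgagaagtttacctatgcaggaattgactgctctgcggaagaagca
*Alcam* 2013: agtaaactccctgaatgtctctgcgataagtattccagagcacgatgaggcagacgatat
*Jam2* 1108: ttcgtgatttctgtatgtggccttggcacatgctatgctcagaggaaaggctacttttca
The NPxY codon pattern, searched in any frame of the sense strand, occurred at least once in 121 of 55681 probe sequences of the array (0.217%), and in 1 of them 2 times, which is this *Itgb1* probe. The other 7 probes lie in 3′ untranslated regions, across the end of the coding sequence (*Cd44* at 2614) or in another cDNA (*Jam2* at 1923), and are given by position only.

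A level below is the log2 signal of a probe minus the 75th percentile of its array, so a level of 0 is a signal brighter than most probes of the array. A difference is the level on the array labelled *p38αΔ/Δ* minus that on the *p38α+/+* array, followed by the error that the scanner software gives for the 2 signals. Repeated spots of 1 probe had a median standard deviation of 0.09 on the *p38α+/+* array and 0.10 on the other (log2, 276 probes), and 0.14 for the difference. Neither error holds any spread between mice. A probe counts as measured when it was well above background on both arrays, which held for 35798 probes and for 14 of the 15 receptor probes. Both *Mapk14* probes differed little, by -0.04 and -0.05. Whether they lie in the deleted part was not determined, so every direction below rests on the labels.

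Over the 14 measured receptor probes, 9 were lower and 5 higher on the array labelled *p38αΔ/Δ*, with a median difference of -0.30. Over all measured probes 18009 were lower and 17789 higher, with a median of -0.00448. Only 1 of the 14, in *Jam2*, was at least 2-fold lower, where 5.53% of all measured probes were, and 1, also in *Jam2*, was at least 2-fold higher, where 5.01% were. With each gene at its brightest probe, 4 genes were lower and 4 higher, with a median difference of -0.02, close to the -0.04 over 15646 named genes. Of these named genes 8322 were lower and 7324 higher, the background for the lower and higher counts of every gene list below. At this probe 0 of the 8 genes were lower by 2-fold or more and 1 was higher by as much, against 5.02% and 3.18% of all named genes. These counts are close to the background. The balance depended on the probe, however, since with the mean of all of a gene's probes 7 of the 8 genes were lower and the median was -0.24, and with the probe nearest the 5′ end 6 were lower and it was -0.43.

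**Figure D1:**
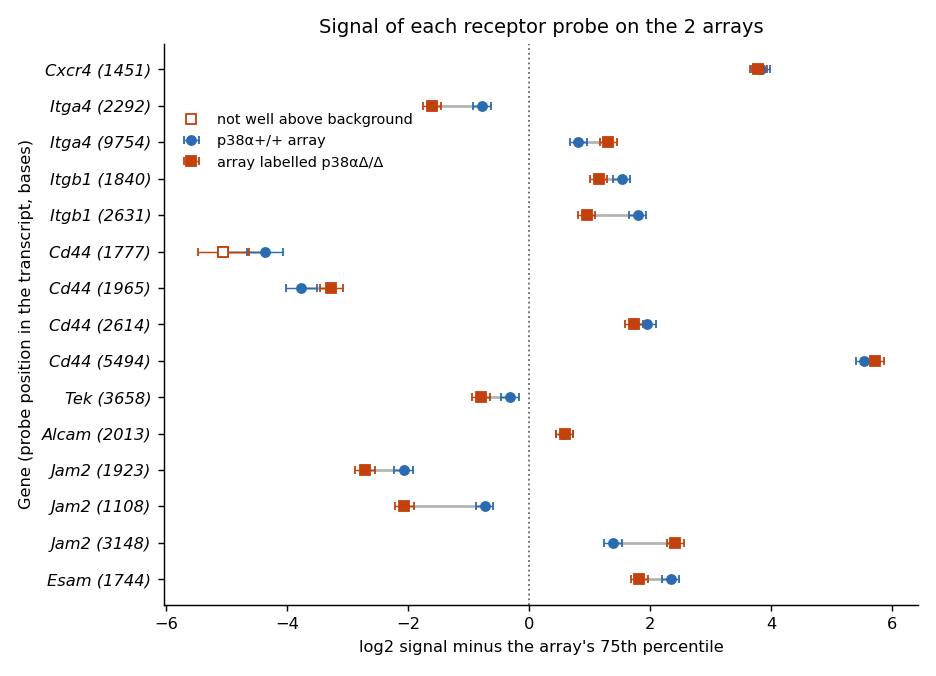
Level of each of the 15 receptor probes (log2 signal minus the 75th percentile of the array, horizontal axis) for p38α+/+ (circles) and for the array labelled p38αΔ/Δ (squares), with the scanner software's error as bars. Probes are listed by gene and by position in the transcript, from 5′ to 3′ within a gene, and the open square marks the 1 signal not well above background. The widest gaps, in opposite directions, belong to Jam2 at 1108 and at 3148.

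The chemokine receptor gene *Cxcr4* differed by less than its error. Its probe, at position 1451 in the 3′ untranslated region (chr1:130485079-130485138, minus strand, mm9), had a level of 3.83 for *p38α+/+* cells and 3.79 on the array labelled *p38αΔ/Δ*. The difference of -0.05 ± 0.20 was smaller than its error and changed sign between ways of scaling the arrays, from -0.05 to 0.06, with -0.14 after normexp background correction. The deposited intensities of 2046 and 1590 differ more than this, because the whole array labelled *p38αΔ/Δ* was dimmer, with a 75th percentile of 6.85 against 7.16 on the log2 scale.

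The subunits of the integrin α4β1 did not give 1 direction. *Itgb1*, which encodes the β1 chain shared by many integrins, was lower at both of its probes. The stalk probe (chr8:131246349-131246408, plus strand) had levels of 1.53 and 1.15 on the *p38α+/+* array and the array labelled *p38αΔ/Δ*, a difference of -0.38 ± 0.20. The tail probe, whose 60 bases span 5896 bases of genome (chr8:131250081-131255976, plus strand) and so cross an intron, had levels of 1.79 and 0.95, a difference of -0.85 ± 0.20 or 1.80-fold lower. Both differences exceeded the error of the signals, and both probes stayed lower under the 7 other ways of processing the signals, between -0.42 and -0.34 for the stalk probe and between -0.85 and -0.79 for the tail probe. Several of these ways only shift the receptor probes by the same small amount, so they could not have changed these signs. Among all measured probes, the tail probe's difference stood at the 7.73 percentile and the stalk probe's at the 23.2 percentile.

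*Itga4*, which encodes the α4 chain, was lower at one probe and higher at the other. The coding probe at 2292 (chr2:79153985-79155115, plus strand) had levels of -0.78 for *p38α+/+* cells and -1.61 on the array labelled *p38αΔ/Δ*, a difference of -0.83 ± 0.21. At position 9754, in the 3′ untranslated region (chr2:79173193-79173252, plus strand), the levels were 0.81 and 1.31, a difference of 0.50 ± 0.20. The probes lie 7462 bases apart on the same transcript, and the upstream difference minus the downstream one was -1.33. Normexp background correction brought the difference at 2292 to -0.40 and this gap to -0.76, with the signs kept. No single value therefore describes *Itga4* on these arrays.

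*Cd44*, which encodes the hyaluronan receptor, was nearly the same on both arrays at its bright probes. At position 5494 in the 3′ untranslated region (chr2:102651398-102651457, minus strand) the levels were 5.54 for *p38α+/+* cells and 5.72 on the array labelled *p38αΔ/Δ*, a difference of 0.18 ± 0.20. At 2614, over the end of the coding sequence (chr2:102654278-102654337), the levels were 1.95 and 1.73, a difference of -0.21 ± 0.20. These differences were about as large as their errors and opposite in sign.

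Signal from the variable region of *Cd44*, whose exons are skipped in the standard form of the receptor, was close to the background on both arrays. The probe at 1965 (chr2:102672645-102672704, minus strand) was measured on both, with levels of -3.76 and -3.27 and a difference of 0.50 ± 0.32. Its neighbour at 1777 (chr2:102677971-102678030) had a level of -4.37 on the *p38α+/+* array, and on the other array, at -5.05, its signal did not stand well above background. Set against the lowest signal well above background on that array, it was at least 1.33-fold higher on the *p38α+/+* array, while normexp background correction gave a difference of the opposite sign, 0.15. Repeated spots at such levels had a median standard deviation of 0.52 for the difference at 1777 and 0.37 at 1965, so these arrays did not resolve a change in variable-region signal.

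*Tek*, which encodes the angiopoietin receptor TIE2, was lower on the array labelled *p38αΔ/Δ*. Its 1 probe (chr4:94540624-94540683, plus strand) had levels of -0.31 on the *p38α+/+* array and -0.80 on the other, a difference of -0.48 ± 0.21 or 1.40-fold. That is more than the error of the signals. Under the other ways of processing it stayed between -0.50 and -0.28.

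Among the cell-cell adhesion molecules, *Esam*, which encodes a junctional molecule also used to enrich HSCs, was lower and *Alcam* differed by less than its error. The *Esam* probe at 1744 in the 3′ untranslated region (chr9:37345795-37345854, plus strand) had levels of 2.34 for *p38α+/+* cells and 1.82 on the array labelled *p38αΔ/Δ*, a difference of -0.52 ± 0.20 or 1.43-fold. It stayed between -0.58 and -0.45 under the other ways of processing, and stood at the 16.7 percentile of the differences of all measured probes. For *Alcam* the probe (chr16:52268908-52270785, minus strand, across a splice junction) had levels of 0.58 and 0.59, a difference of 0.00369 ± 0.20, which was positive under every scaling of the arrays tried and -0.02 after normexp background correction.

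*Jam2*, which encodes JAM-B, gave both of the differences of at least 2-fold, and they were opposite. At position 1108, over the membrane-spanning part (chr16:84816558-84816617, plus strand), the levels were -0.74 for *p38α+/+* cells and -2.06 on the array labelled *p38αΔ/Δ*, a difference of -1.33 ± 0.21, or 2.51-fold lower. At position 3148 of the same transcript, in the 3′ untranslated region (chr16:84824952-84825011), the levels were 1.39 and 2.41, a difference of 1.03 ± 0.20, or 2.04-fold higher. The intensities moved the same way before any scaling, from 86.1 to 27.6 at 1108 and from 375 to 614 at 3148. After normexp background correction neither difference reached 2-fold, at -0.58 for 1108 and 0.89 for 3148.

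A further *Jam2* probe belongs to another cDNA, which reads a stretch of the gene 5′ of both (chr16:84811166-84811225). Its levels were -2.07 and -2.71, a difference of -0.64 ± 0.23, the direction of the membrane-spanning probe, but only -0.05 after normexp background correction. Thus 2 of the 3 *Jam2* probes were lower and the brightest was higher. Differences of this size were more frequent among dim probes. In the second lowest quartile of level, where the probe at 1108 falls, 8.25% of probes were at least 2-fold lower, whereas in the highest quartile, where the probe at 3148 falls, 1.31% were at least 2-fold higher.

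**Figure D2:**
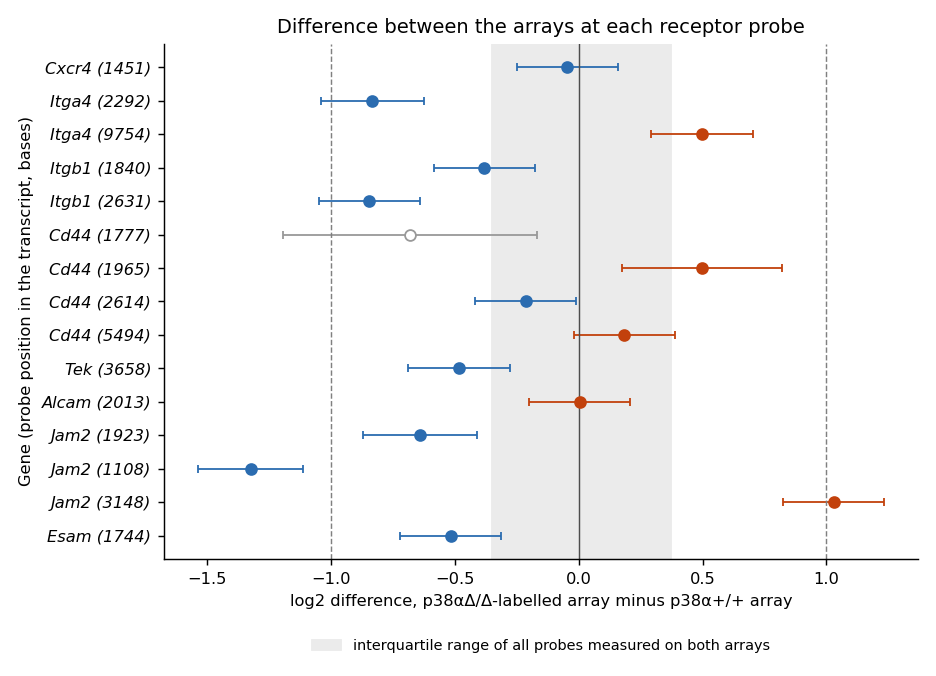
Difference of each receptor probe (level on the array labelled p38αΔ/Δ minus level on the p38α+/+ array, log2, horizontal axis), with the scanner software's error of the difference as bars, in blue where lower and orange where higher. The grey band is the interquartile range of all 35798 measured probes, from -0.35 to 0.37, the dashed lines mark a 2-fold difference, and the open grey circle is the Cd44 probe not well above background on 1 array. Only the Jam2 probes at 1108 (-1.33) and 3148 (1.03) pass the dashed lines.

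Of the 4 receptors read by more than 1 probe, *Itga4* and *Jam2* were lower upstream and higher at the 3′ end, and *Cd44* showed no ordered pattern. *Itgb1* was lower at both probes and most so downstream, but both lie in coding sequence, so its 3′ untranslated region was not read. On one transcript, the difference at the upstream probe minus that at the downstream probe was -1.33 for *Itga4* and -2.36 for *Jam2*, but 0.46 for *Itgb1*, whose probes are 791 bases apart. For *Cd44* it was 0.31 from 1965 to 5494 and -0.40 from 2614 to 5494.

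**Figure D3:**
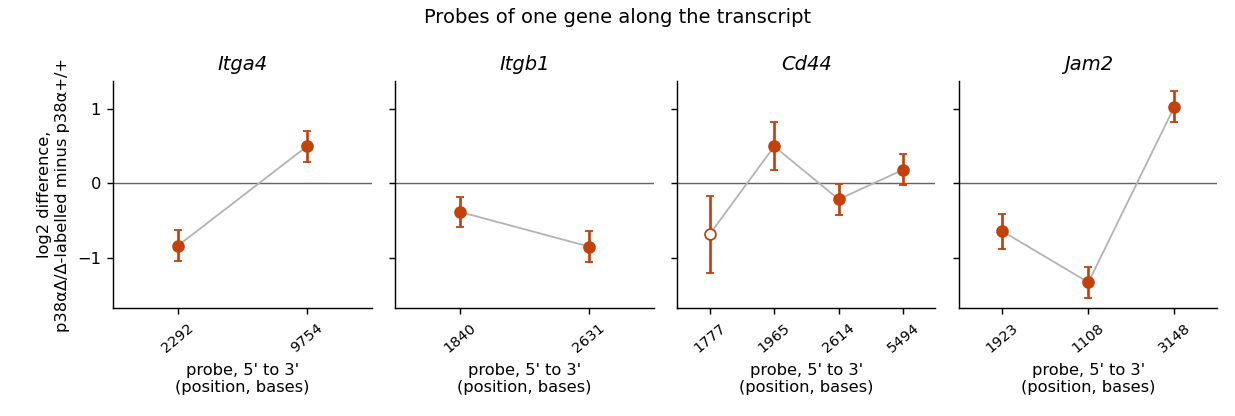
Log2 difference between the arrays (vertical axis, bars are the scanner software's error) for the probes of Itga4, Itgb1, Cd44 and Jam2, placed from 5′ to 3′ along each gene and labelled by position in bases. The Jam2 position 1923 refers to another cDNA than 1108 and 3148, and the open circle is the Cd44 probe not well above background on 1 array. Itga4 and Jam2 pass from below 0 to above 0 at the 3′ end, and both Itgb1 probes, which lie in coding sequence, are below 0.

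The same comparison was then made over every transcript with 2 or more measured probes, at its most upstream and most downstream probe, a comparison chosen after the receptor values had been seen. The upstream probe had the lower difference in 59.5% of 3487 transcripts, with a median of -0.12. For probes at least 2000 bases apart, this share was 62.2% of 884 transcripts and the median was -0.20, and for probes under 500 bases apart it was 56.6% of 1220 and -0.05. In the most distant pairs the median difference was -0.19 at the upstream probe and -0.00619 at the downstream one. The array labelled *p38αΔ/Δ* thus gave less upstream signal relative to downstream signal over the transcripts in general. Of these 884 transcripts, which include those of *Itga4* and *Jam2*, 70 (7.92%) had a value as low as that of *Itga4* and 12 (1.36%) one as low as that of *Jam2*. Each count includes the receptor's own transcript. Signals upstream of the 3′ end also depend on RNA integrity and on how far labelling reached, and their part in the *Itga4* and *Jam2* values was not tested.

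**Figure D4:**
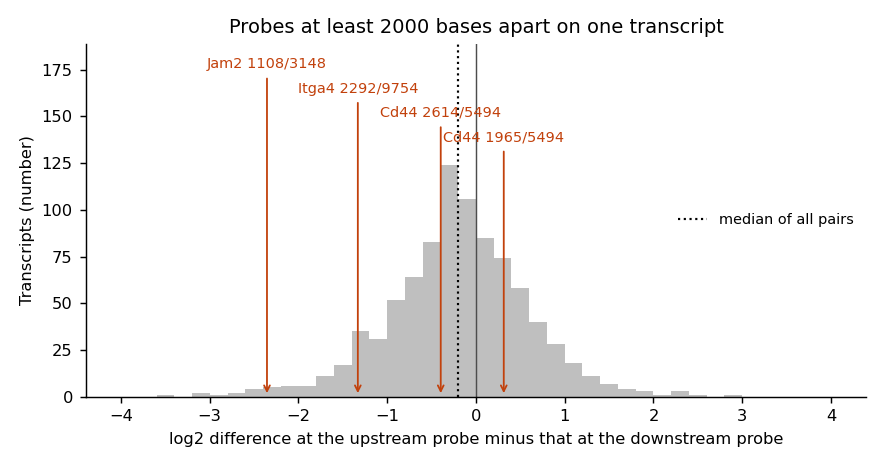
Number of transcripts (vertical axis) by the log2 difference at the most upstream probe minus that at the most downstream probe (horizontal axis), for 884 transcripts whose measured probes lie at least 2000 bases apart. Arrows mark the receptor probe pairs by their positions, and the dotted line is the median of -0.20. The Itga4 pair at -1.33 and the Jam2 pair at -2.36 lie in the left tail, and both Cd44 pairs lie near the centre.

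The ligands and counter-receptors of these molecules, normally supplied by niche cells, gave more higher than lower values. Of 18 such genes 13 were measured at the brightest probe, of which 4 were lower and 9 higher on the array labelled *p38αΔ/Δ*, with a median of 0.43 against -0.04 over all named genes. Among them 2 of 13 were at least 2-fold higher, against 3.18% of all named genes. Several of the higher genes were dim, such as *Vcam1* and *Fn1*, with levels of -4.24 and -3.24 on the *p38α+/+* array. *Angpt2*, an angiopoietin that can oppose TIE2 signaling, went from a level of -2.55 to -0.57 (difference 1.99), and the laminin chain gene *Lama5* from -0.56 to 0.60 (1.16). These 2 fall in the second lowest and the third quartile of level, where 6.82% and 3.71% of all measured probes were at least 2-fold higher. The lowest were the hyaluronan synthase gene *Has3* (-0.84) and *Cxcl12* (-0.20), the CXCR4 ligand, whose other probe differed by -2.11. *Angpt1*, the activating TIE2 ligand, chosen after its values were seen, was at 5.74 and 5.69 on the arrays.

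Other integrin subunits gave 7 lower and 4 higher among 11 measured of 24, with a median of -0.17. Of these 0 were at least 2-fold higher, against 3.18% of all named genes, and 1 was lower by as much, 9.09% against 5.02%. This was *Itgav*, encoding the αv chain (-1.08), although its other probe differed by 0.15. *Itgb4*, encoding the laminin-binding β4 chain, was next (-0.78). The highest were *Itga5* (0.45), encoding the α5 chain that pairs with β1 to bind fibronectin, and *Itgam* (0.42), encoding the αM chain of Mac-1, whose 3 probes ranged from -0.42 to 0.88. Other homing and retention receptors were divided, with 7 lower and 6 higher of 13 measured and a median of -0.03. *Procr*, encoding the protein C receptor EPCR that marks and helps retain HSCs, went from 4.38 to 3.17 (-1.22, 2.32-fold lower). *S1pr1*, which encodes a receptor for the egress signal sphingosine-1-phosphate, was also lower (-0.84). *Cdh2*, encoding N-cadherin, was higher (0.68, with 0.14 at its other probe).

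The relatives of ALCAM, JAM-B and ESAM also differed in both directions. Of 18 measured immunoglobulin-family and junctional molecules 11 were lower and 7 higher, with a median of -0.22. Past 2-fold were 2 of the lower genes and 1 of the higher, 11.1% and 5.56% of the list against 5.02% and 3.18% of all named genes. *Nectin3* (-1.12) and *Cxadr* (-1.04), both encoding junctional molecules, were lowest, but *Nectin3* reached 0.68 and *Cxadr* 0.13 at another probe. *Nectin1* (1.43) and *Vcam1* (0.90), the α4β1 counter-receptor, were highest, at levels of -3.74 and -4.24 on the *p38α+/+* array. *Jam3*, which encodes the JAM-B partner JAM-C and was named after its values were seen, had levels of -1.59 and -1.56. Among sialomucins and tetraspanins 9 of 12 were lower, with a median of -0.28 and none at least 2-fold changed either way. The sialomucin genes *Podxl* (-0.84, with 1.72 at its other probe) and *Emcn* (-0.84) were lowest, and the tetraspanin genes *Cd37* (0.16) and *Cd53* (0.12) highest.

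Downstream of the receptors the medians were close to that of all named genes. In integrin activation and focal adhesion 13 of 24 measured genes were lower and the median was -0.03, with 1 gene past 2-fold in each direction, 4.17% against 5.02% lower and 3.18% higher over all named genes. *Src*, encoding a kinase of adhesion signaling (-1.07), and *Pxn*, encoding the adaptor paxillin (-0.74), were lowest, and the adaptor gene *Bcar1* (1.13) and the kinase gene *Lyn* (0.73) highest. In signaling under CXCR4 and TIE2, 16 of 26 were lower, the median was -0.10 and none of the 26 was at least 2-fold changed. The GTPase gene *Cdc42* (-0.63) and *Grk6*, encoding a receptor kinase (-0.56, with 0.26 at its other probe), were lowest. *Rgs16* (0.78) and *Rgs2* (0.48), which encode regulators that shorten G protein signaling, were highest. *Ptprb*, encoding a phosphatase that acts on TIE2 and named after its values were seen, was not among the 26. Its brightest probe did not stand well above background on the array labelled *p38αΔ/Δ*, and *p38α+/+* cells had at least 3.27-fold higher signal, but its 3 probes ranged from -3.66 to 2.21.

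For CD44, the linker genes *Ezr* (-0.40) and *Rdx* (-0.19) were lower. The genes of the epithelial splicing regulators that promote variable exons, *Esrp1* (1.09, with 0.04 at its other probe) and *Esrp2* (0.97), were higher, within a list of 6 genes that had 3 lower and 3 higher. Of 10 measured proteases that shed niche contacts and their inhibitors 7 were lower, with a median of -0.16. *Elane*, encoding neutrophil elastase (-1.41), and *Timp2*, encoding a metalloprotease inhibitor (-1.15), were at least 2-fold lower, 20% of the list against 5.02% of all named genes. *Ctsg*, encoding cathepsin G (0.98), and *Adam17*, encoding a sheddase (0.33), were highest. Over all 9 lists, with each gene counted once, 77 of 131 measured genes were lower and 54 higher, and the median was -0.08. Of all named genes 8322 of 15646 were lower, with a median of -0.04. Past 2-fold were 7 of the lower genes and 6 of the higher, where 5.02% and 3.18% of all named genes were.

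**Figure D5:**
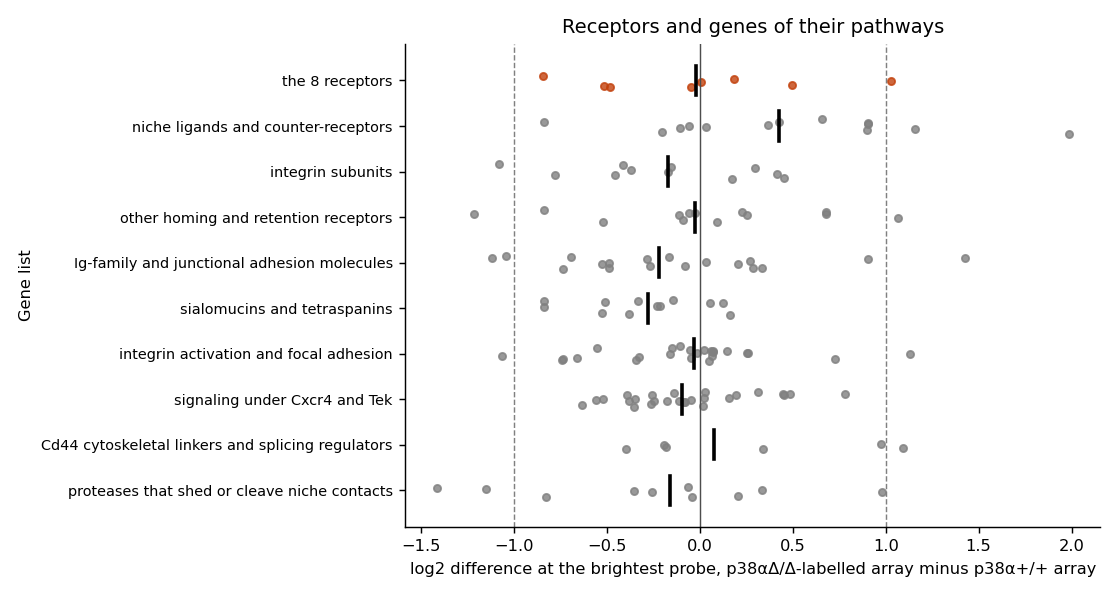
Log2 difference between the arrays at the brightest probe (horizontal axis) for the 8 receptors and for each measured gene of 9 pathway lists (1 point per gene, spread vertically at random within a row). Black bars are medians and dashed lines mark a 2-fold difference. The receptors scatter around their median of -0.02, and the niche ligands have the highest median, 0.43.

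Marker genes of the sorted cells and of other cells differed between the arrays beside these values. All 14 HSC markers were well above background on both arrays, and 13 of them were lower on the array labelled *p38αΔ/Δ*, with a median of -0.64. Of all named genes 8322 of 15646 were lower. At their brightest probes *Itgb1*, *Tek* and *Esam* were also lower, whereas *Itga4* and *Jam2* were higher. *Cxcr4*, *Alcam* and *Cd44* differed by less than their errors. Of 14 endothelial markers, whose cells also express *Tek*, *Esam* and *Jam2*, 11 stood well above background in *p38α+/+* cells and 10 in the other sample. Their summed signal was 35.3 and 26.2 times the 75th-percentile signal of the array. Of this, *Vwf*, also a megakaryocyte marker, gave 21.5 and 14.7. Of the 10 endothelial markers measured on both arrays 7 were lower and 3 higher, with a median of -0.59. Among the measured were *Kdr* (levels of 2.06 and 1.98, with a difference of -1.94 at its other probe) and *Egfl7* (2.29 and 1.66). *Cdh5*, *Sox17* and *Lyve1* were not well above background on either array. Of 12 myeloid markers 9 were measured, and on the array labelled *p38αΔ/Δ* 6 of these were higher by 2-fold or more (3.18% over all named genes), among them *S100a9* (2.01). Of the other 3, *Elane* (-1.41) and *Lyz2* (-0.96) were lower. The third, *Csf1r* (0.21), had the highest levels of the list, 4.85 and 5.07, and its 3 probes ranged from -3.29 to 0.76. The summed signals of the list, in which *Csf1r* weighs most, were 36.4 and 55.2. B cell markers summed to 3.81 and 18.9. On the array labelled *p38αΔ/Δ* most of this was *Jchain*, with levels of 0.18 and 3.93 on the 2 arrays (difference 3.75). All 6 B cell markers measured were higher, with a median of 0.59. Stromal markers summed to 2.64 and 2.86, with 4 and 5 of 10 well above background, among them *Pdgfrb*, *Col1a2*, *Lepr* and *Cxcl12* on both arrays, while *Pdgfra*, *Col1a1*, *Col3a1*, *Dcn* and *Lum* were not on either. Of the genes whose products the gate or the lineage cocktail excludes, 5 of 7 measured were higher and 2 lower. *Cd48* was higher (1.37, with 0.19 at its other probe). *Ly6g*, not among the 7, was well above background only on the *p38α+/+* array (levels of -3.29 and -5.53). The summed signals of megakaryocyte markers were 100 and 89.0, of T cell markers 5.97 and 9.54 and of erythroid markers 13.6 and 19.1. *Cd4* weighed most in the T cell sums (levels of 1.86 and 2.60), and 4 of 6 measured T cell markers were higher. *Ermap* weighed most in the erythroid sums (3.34 and 3.96). Of 7 measured erythroid markers 5 were higher and 2 lower, *Hbb-bt* (-1.10) and *Hba-a1* (-0.57). The part of these cells in the receptor values was not tested.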

How the data were processed

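RNA of LT-HSCs was labelled with Cy3 and hybridized to 2 Agilent arrays of one slide. Per the file headers, the deposited intensity of each spot was background-corrected and detrended by Agilent Feature Extraction 11.5.1.1 and not normalized between arrays. Its error and flags come from the same software, and coordinates are those of mm9. The authors also deposited log2 values for 35795 probes, each column being the log2 signal minus a constant (7.16 and 6.84).

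Control spots and spots flagged as non-uniform or as outliers were left out (19 of 55681 probes), the log2 signal was averaged over spots of a probe, and the 75th percentile of each array was subtracted. Probes were named by symbol, RefSeq accession or synonym through a GRCm38.p6 table used for names only (31778 probes, 57.1%). A gene was represented by its brightest probe (mean of both arrays). Probes well above background numbered 37789 (67.9%) and 38425 (69.0%), and 0 spots were saturated. The number of arrays limits precision. The 8 genes and the 9 pathway and 9 marker lists were chosen with earlier results of these data known. Named genes are the 8 receptors and *Mapk14* at every probe, the 2 largest falls and 2 largest rises of each pathway list among measured genes, and markers. One gene that this rule names is not reported here. Of 240 listed symbols 238 were found on the array.

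The alternatives were quantile normalization, the median of measured probes, the 75th percentile over measured probes, a loess between arrays (span 0.3), normexp with an offset of 50, the authors' log2 values, flagged spots kept, gene means over probes, and no filter on dim probes. Using each gene's probe nearest the 3′ or 5′ end was added after values were seen. The calculation was tested on simulated data for this comparison: 200 of 200 probes shifted 4-fold among 35798 were recovered. That shift lies well past the 2-fold threshold, so the recovery checks the calculation only. It tells nothing of smaller differences or of the spread between mice. Normexp was run in limma 3.58.1 (R 4.3.3), the loess in statsmodels 0.14.6, and the rest in Python 3.11.15 with pandas 2.3.3 and numpy 2.4.6.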

Additional observations from a re-analysis of the deposited data

How the results depend on the processing

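Under the 7 other ways of processing the signals, 12 of 15 receptor probes kept their sign, and those that did not were *Cxcr4*, *Alcam* and *Cd44* at 1777. The last had 6 such ways, because the authors' log2 values do not hold it. Several of the ways only shift all receptor probes by the same small amount. They could have changed the sign of only the smallest differences, so this count is a weak check. Normexp background correction, whose offset draws dim signals together, left 0 receptor probes lower by 2-fold or more and 0 higher by as much, with 236 and 232 of all measured probes against 1978 and 1794. Under it *Jam2* differed by -0.58 at 1108, by 0.89 at 3148 and by -0.05 at 1923, and *Itga4* by -0.40 at 2292. The median of the 8 genes was between -0.08 and 0.04 under these 7, but it was -0.24 with the mean of all of a gene's probes and also with the mean of its probes well above background, and 7 of 8 genes were then lower. With the probe nearest the 5′ end it was -0.43 and 6 of 8 were lower, whereas the probe nearest the 3′ end gave the same -0.02 as the brightest. No paired analysis was possible because each group has 1 array, and for the same reason no replicate could be left out. Signals near the background limit the *Cd44* variable region most.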
